A study of Rattus norvegicus with 2 samples.

Results

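The genes described here give cells of the trunk and limbs their position. They are the Hox genes with a row in the table (26 of the 4 clusters HoxA to HoxD), chosen by their symbols, and 7 further regulators of the hindlimb and limb girdle given by name, Pitx1, Tbx4, Tbx15, Meis1, Meis2, Shox2 and Emx2. Together they are 33 of 17337 genes. Other Hox genes, among them Hoxa10, Hoxc6 and Hoxd11, have no row and were not analysed here. Acetabular cartilage, the cartilage of the hip socket, was collected from 3-week-old Wistar rats. DA-DDH rats, a model of developmental dysplasia of the hip, were swaddled during the 10 days after birth, which held their hips adducted and extended and their knees straight, and moved freely from then on. Control rats were never restrained. Each condition is 1 library from pooled RNA, of 4 control rats and of 5 DA-DDH rats. No difference below therefore has a replicate check, the conditions were not tested, and differences between animals, litters or dissections cannot be told apart from those between conditions.

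Hox genes encode homeodomain transcription factors and lie in clusters, where the order of the genes matches the order in which they act along the body. Genes of low paralog number act toward the head, and genes of high number toward the tail and the tips of the limbs. In the mouse, Pitx1 gives the hindlimb its identity and acts upstream of Tbx4, genes at the posterior end of HoxC are active in the hindlimb bud, and the pelvic girdle needs Emx2. Meis and Pbx proteins bind DNA together with Hox proteins.

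The libraries held 796723 reads on genes in control and 833869 in DA-DDH. Ratios below are log2 ratios of DA-DDH to control reads after TMM scaling, which sets the libraries to a common level while leaving out extreme genes, with 0.5 reads added to each. Scaling by total reads instead moves every ratio up by 0.43, and the median of all genes with it, from 0.03 to 0.45. With total reads, an interval above 0 is therefore not by itself an interval above the median gene. Among genes more than 2-fold apart, 60.6% were higher in DA-DDH with TMM and 93.1% with total reads. Intervals are 95% exact intervals and cover counting error only, and a 0 allows up to 3 reads, or 4.36 TMM-scaled CPM in control and 3.10 in DA-DDH. Markers of other tissues differed as well. All 6 chondrocyte markers were below 0 (summed reads 259097 in control and 110465 in DA-DDH). Among markers that reached 30 reads in one library or the other, all 7 of skeletal muscle (520 and 2045 reads over the list), all 7 of endothelium (261 and 851) and all 3 of macrophages (77 and 271) were above 0. So were 6 of 7 of fibroblasts (2187 and 4634, of which Postn gave 762 and 2269), 3 of 3 of adipocytes (97 and 242), 4 of 5 of smooth muscle and pericytes (868 and 1343) and 2 of 4 of osteoblasts (1139 and 1818). Of all genes at this floor 52.4% were above 0. The macrophage markers counted, Tek, Vwf and Emcn of endothelium, and Plin1 and Lpl of adipocytes passed the floor through the DA-DDH library alone. Their counts therefore lean toward high ratios. Erythroid markers (152 and 131 reads, 0 of 2 above 0) and peripheral nerve markers (115 and 114, 0 of 1) were not higher. Of the defining markers, Myog of muscle and Sox10 of nerve had 0 reads in both libraries. The part of these tissues in the values below was not tested, and in bulk tissue fewer cells of a type and less RNA per cell cannot be told apart.

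The Hox genes were expressed at a low level, with 126 reads over all 26 genes in the control library (0.0158% of its reads) and 151 in the DA-DDH library (0.0181%). Their summed log2 ratio was -0.23 (interval -0.58 to 0.12), and it was 0.19 with total-read scaling, so no direction can be given for the family as a whole. Reads were found in both libraries for 12 of the 26 genes, in DA-DDH alone for 4 and in neither for 10. The 4 genes with reads in DA-DDH only were Hoxa2 with 1 read and Hoxb3, Hoxb9 and Hoxd10 with 2 reads each, at or below what a 0 allows. Only Hoxc10 reached 30 reads.

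**Figure D1:**
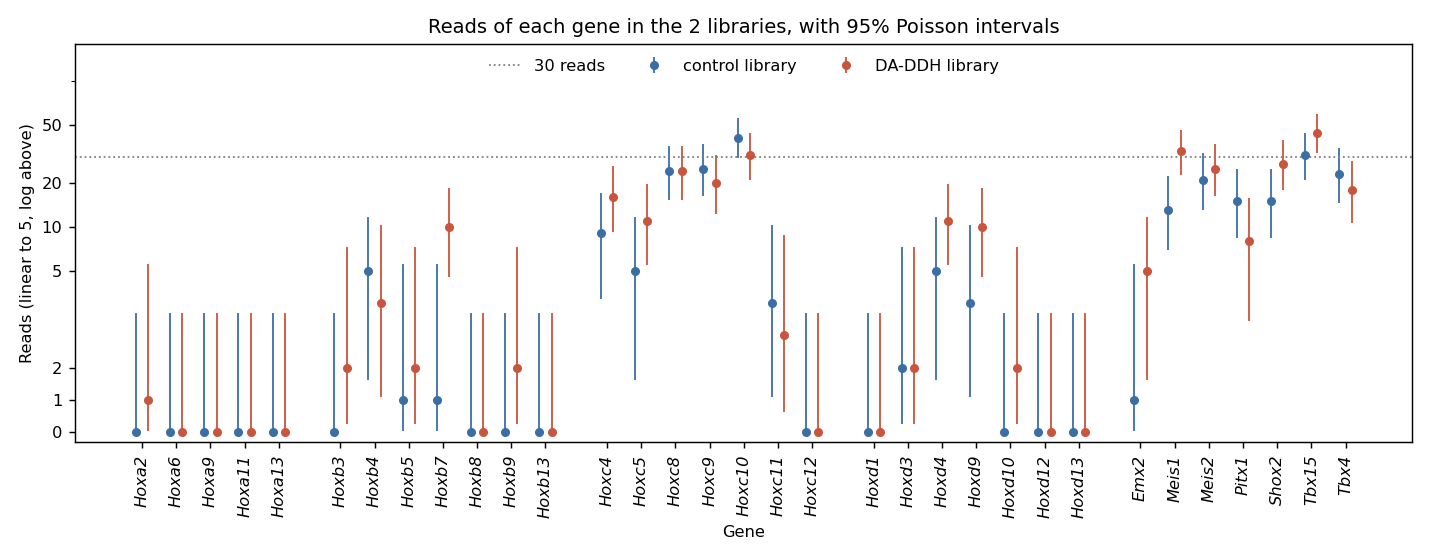
Reads of each of the 33 genes in the control library (blue) and the DA-DDH library (red), on an axis that is linear to 5 reads and logarithmic above, with 95% exact Poisson intervals. The HoxC genes from Hoxc8 to Hoxc10 stand out from the other Hox genes in both libraries, with 20 to 41 reads, and the HoxA genes lie at 0 or 1.

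The Hox reads came mostly from the HoxC cluster, which in rn6 lies on the plus strand of chromosome 7. Hoxc10 (chr7:144577578-144582801), a gene of lumbar and sacral segments and of the hindlimb in the mouse, had the most reads, 41 in control and 31 in DA-DDH. Its log2 ratio was -0.89 (interval -1.62 to -0.19), and -0.46 with total-read scaling, when the interval includes 0. The DA-DDH library held fewer Hoxc10 reads and was the deeper one. Hoxc9 (chr7:144595960-144598634) had 25 and 20 reads (-0.81, interval -1.74 to 0.09). Hoxc8 (chr7:144605072-144607637), which acts in the thoracic region in the mouse, had 24 reads in each library (-0.49, interval -1.37 to 0.39). Both intervals include 0, and among the HoxC genes that of Hoxc10 alone leaves it out with TMM scaling. The ratios of Hoxc10 and Hoxc9 were close and their intervals overlap, so Hoxc10 is not set apart from Hoxc9. Hoxc11 had 4 and 3 reads, and Hoxc12, the gene of highest number among those measured in this cluster, had 0 in both.

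The HoxC genes of low number had more reads in the DA-DDH library. Hoxc4 (chr7:144647587-144650129) had 9 reads in control and 16 in DA-DDH (log2 ratio 0.30, interval -0.93 to 1.70). Hoxc5 (chr7:144628120-144631542) had 5 and 11 (0.57, interval -0.997 to 2.52). Neither interval leaves out 0. Hoxc8 to Hoxc11 together had 94 and 78 reads (-0.76, interval -1.21 to -0.31), or -0.33 with total-read scaling (interval -0.79 to 0.11), while Hoxc4 and Hoxc5 together had 14 and 27 (0.43, interval -0.53 to 1.501). This division of the cluster was chosen after its values were seen. Within the HoxC reads, Hoxc4 and Hoxc5 made up 12.96% in control (interval 7.27 to 20.8) and 25.7% in DA-DDH (interval 17.7 to 35.2), a share that needs no scaling between libraries. The odds ratio was 2.32 (interval 1.09 to 5.13), a direction that was set by how the cluster was divided. Without Hoxc4 the share of Hoxc5 alone was 5.05% and 12.4%, and the interval of the odds ratio (0.803 to 10.1) then includes 1.

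**Figure D2:**
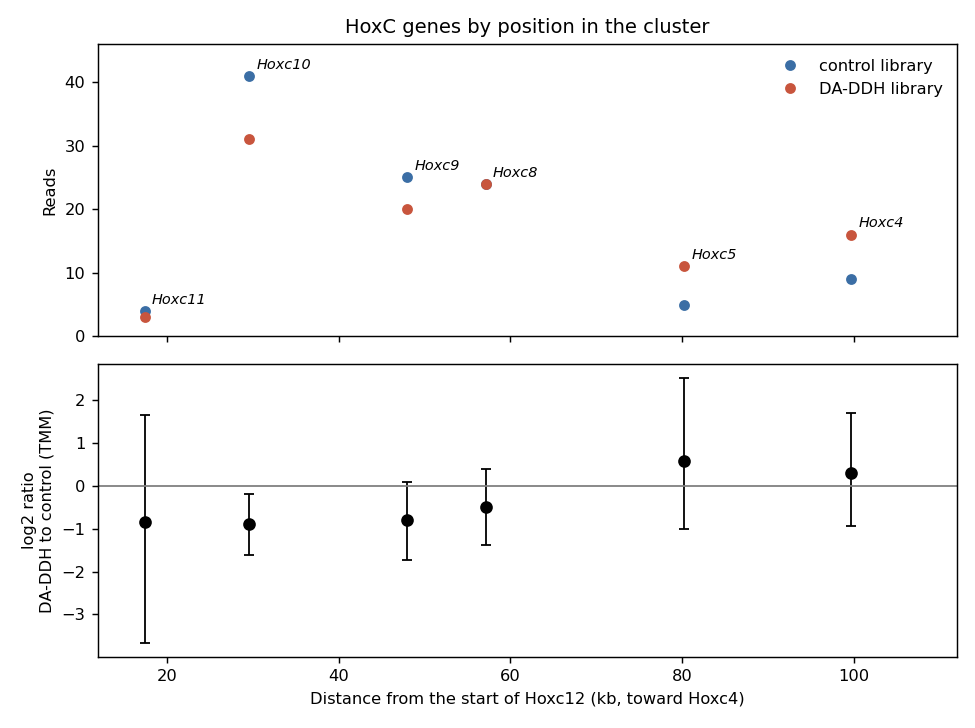
HoxC genes by distance from the start of Hoxc12 in kilobases, with reads in each library above (blue, control; red, DA-DDH) and the TMM-scaled log2 ratio with its 95% exact interval below. The 4 genes from Hoxc11 to Hoxc8 lie below 0, from -0.89 to -0.49, and Hoxc5 and Hoxc4 lie above 0, at 0.57 and 0.30. Hoxc10 is the 1 gene whose interval leaves out 0, and the points of Hoxc8 coincide at 24 reads. Hoxc12 had 0 reads in both libraries and is not drawn.

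HoxC as a whole had 108 reads in control and 105 in DA-DDH, a log2 ratio of -0.53 (interval -0.93 to -0.13). With total-read scaling it was -0.11 (interval -0.51 to 0.29), and without Hoxc10 it was -0.35 (interval -0.85 to 0.15), so the distance from 0 rests on the scaling and on 1 gene. HoxB, on chromosome 10, had 7 and 20 reads (0.96, interval -0.28 to 2.51). HoxD, on chromosome 3, had 11 and 25 (0.66, interval -0.38 to 1.86). Both held fewer reads than HoxC in each library, and with TMM scaling both intervals include 0. With total-read scaling they do not, at 1.38 for HoxB (interval 0.149 to 2.93) and 1.08 for HoxD (interval 0.0435 to 2.29). Both of these intervals include 0.45, the median of all genes with that scaling. Together HoxB and HoxD had 18 and 45 reads (0.81, interval 0.01 to 1.71). This joint sum was not among those planned, its interval barely leaves out 0, and Hoxb7 gave 1 and 10 of its reads.

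The share of the Hox reads that came from HoxC differed between the libraries beyond counting error. HoxC gave 85.7% of the Hox reads in control (interval 78.4 to 91.3) and 69.5% in DA-DDH (interval 61.5 to 76.8), intervals that do not overlap. The odds that a Hox read came from HoxC were 0.382 times as high in DA-DDH (95% exact conditional interval 0.195 to 0.722). Without Hoxc10 the shares were 78.8% and 61.7% (odds ratio 0.434, interval 0.215 to 0.850), and without Hoxb7 they were 86.4% and 74.5% (0.460, interval 0.228 to 0.901). Variation between rats or dissections is not part of these intervals. HoxB made up 5.56% and 13.2% of the Hox reads (odds ratio 2.59, interval 1.006 to 7.51). HoxD made up 8.73% and 16.6% (2.07, interval 0.93 to 4.88). The interval of HoxD includes 1, and so does that of HoxB without Hoxc10 (0.85 to 6.54).

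**Figure D3:**
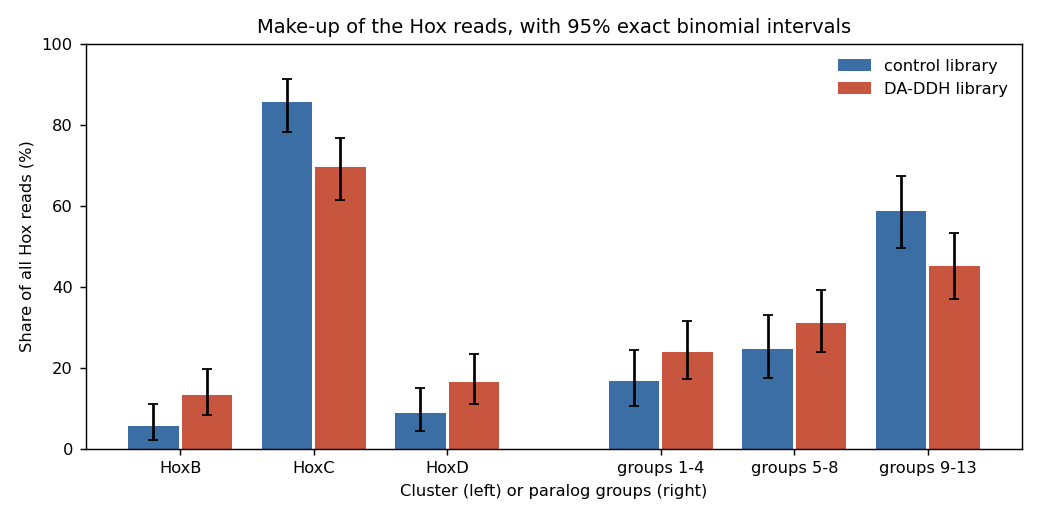
Share of all Hox reads, in percent, taken by each cluster (left) and by each range of paralog groups (right) in the control (blue) and DA-DDH (red) libraries, with 95% exact binomial intervals. HoxC took 85.7% of the Hox reads in control and 69.5% in DA-DDH, and groups 9 to 13 took 58.7% and 45.0%. HoxA, with 0 and 1 reads, is not drawn.

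Read by paralog group, the sum of the genes of high number was lower in DA-DDH, and the intervals of the other sums included 0. Groups 9 to 13 had 74 reads in control and 68 in DA-DDH (log2 ratio -0.61, interval -1.11 to -0.12). With total-read scaling the ratio was -0.19 (interval -0.68 to 0.31), and without Hoxc10 it was -0.33 (interval -1.04 to 0.40). Groups 5 to 8 had 31 and 47 reads (0.10, interval -0.58 to 0.81), and groups 1 to 4 had 21 and 36 (0.27, interval -0.53 to 1.14). Groups 9 to 13 made up 58.7% of the Hox reads in control (interval 49.6 to 67.4) and 45.0% in DA-DDH (interval 36.9 to 53.3), an odds ratio of 0.577 (interval 0.347 to 0.955). Without Hoxc10 the odds ratio was 0.704 (interval 0.376 to 1.31). Ratios of the posterior genes lay on both sides of 0. Those of HoxB and HoxD had 4 reads in control and 14 in DA-DDH (1.20, interval -0.36 to 3.38, and 0.07 to 3.80 with total-read scaling), of which Hoxd9 gave 4 and 10. Those of HoxC were below 0 (Hoxc9, Hoxc10 and Hoxc11), but with TMM scaling only the interval of Hoxc10 leaves out 0. Whether the posterior genes of the clusters differ in direction was not tested, as a sum stands here beside single genes. Groups 12 and 13, which act at the tail and the tips of the limbs in the mouse, had 0 reads in both libraries for all 5 genes with a row, Hoxc12, Hoxd12, Hoxa13, Hoxb13 and Hoxd13.

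In HoxB the largest difference was in Hoxb7 (chr10:84135224-84138642), with 1 read in control and 10 in DA-DDH (log2 ratio 2.32, interval 0.02 to 8.27). With TMM scaling it was the only member with an interval above 0. Hoxb4, which acts in the neck region in the mouse, had 5 and 4 reads. Without Hoxb7 the ratio of HoxB was 0.20 (interval -1.36 to 1.99). Hoxb5 had 1 and 2 reads, and Hoxb8 and Hoxb13 had 0 in both. In HoxD, Hoxd9 (chr3:61620192-61622360) had 4 and 10 reads (0.73, interval -0.96 to 2.96) and Hoxd4 (chr3:61634005-61651066) had 5 and 11 (0.57, interval -0.997 to 2.52). Hoxd3 had 2 reads in each library, and Hoxd1, Hoxd12 and Hoxd13 had 0 in both. Differences of these HoxD genes were not detectable at this depth.

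The HoxA genes gave almost no reads. Hoxa2, Hoxa6, Hoxa9, Hoxa11 and Hoxa13 had 1 read over both libraries. In the deposited annotation Hoxa6, Hoxa9 and Hoxa11 have their exons at 3 places each and Hoxa2 at 2, partly on an unlocalized sequence of chromosome 4, and Hoxa13 is annotated only on that sequence. Among the 154 genes of the table with exons on more than 1 sequence, 60.4% had 0 reads in both libraries, against 30.3% of all genes. The exons of Hoxa11 also overlap RGD1564419 on the other strand. A 0 for HoxA was therefore not taken as absence, and the shares above are shares of the Hox reads that could be counted.

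Pitx1 and Tbx4, the regulators of hindlimb identity, were lower in the DA-DDH library. Pitx1 (chr17:8878270-8884428) had 15 reads in control and 8 in DA-DDH, a log2 ratio of -1.36 (interval -2.84 to -0.07). Tbx4 (chr10:73333119-73362783), a T-box factor of the hindlimb bud, had 23 and 18 reads (-0.84, interval -1.82 to 0.11). The interval of Tbx4 includes 0. Both ratios stayed negative with total-read scaling, at -0.93 and -0.41, but the interval of Pitx1 then includes 0 as well. Together they had 38 and 26 reads (-1.03, interval -1.82 to -0.28), and -0.60 with total-read scaling (interval -1.39 to 0.14). The pair was joined after its values were seen. Of the reads of the 7 positional genes outside the Hox clusters, Pitx1 and Tbx4 held 31.9% in control (interval 23.7 to 41.1) and 16.2% in DA-DDH (interval 10.9 to 22.9). They have the lowest ratios of the 7, so the choice of the pair set the direction of this share. Nothing further is read from the share. Beside these values, the summed chondrocyte markers had a log2 ratio of -1.72, and their part in the result was not tested.

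The forelimb and hindlimb T-box genes were compared as a check of the tissue. Tbx5, the forelimb counterpart of Tbx4, had 1 read in control and 0 in DA-DDH, against 23 and 18 of Tbx4. Isl1, which acts at the start of the hindlimb bud in the mouse, had 0 in both.

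Tbx15, Shox2 and Emx2, which shape the girdles and proximal limb, had ratios at or above 0. Tbx15 (chr2:201346756-201389962), a T-box factor that the scapula needs in the mouse, had 31 reads in control and 44 in DA-DDH, a log2 ratio of 0.01 (interval -0.68 to 0.73). It lay at the level of the control after TMM scaling, and at 0.43 with total reads. Shox2 (chr2:164118175-164126783), a homeodomain factor of the proximal limb skeleton, had 15 and 27 (0.34, interval -0.61 to 1.37). Emx2 (chr1:280633938-280640946), a homeodomain factor of the pelvis and scapula, had 1 and 5 (1.38, interval -1.33 to 7.39). Summed, the 3 genes had 47 and 76 reads (0.20, interval -0.34 to 0.76, and 0.08 to 1.18 with total-read scaling). The 7 positional genes together had 119 and 160 (-0.07, interval -0.42 to 0.29), a sum that total-read scaling moved to 0.36 (interval 0.01 to 0.72). With that scaling the median of all genes is 0.45, which lies within the intervals of both sums.

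The T-box pair, Tbx4 and Tbx15, and Meis1 are the genes outside the Hox clusters for which a RefSeq promoter of the GRCr8 build was at hand, and 13 of the Hox genes also matched. The 250 bases before the start of each of the 3 genes are shown because that of Tbx4 holds the letters TGACAG, which Meis and Prep proteins, among them those of other members, are known to bind. Capitals mark these letters. Also searched, on both strands, were TGATTNAT (Pbx with Hox), AGGTGT (T-box factors), TAATCC (Pitx) and TAATTA (homeodomain core), of which none occurs in these 3 windows.
Tbx4, plus strand, chr10:71228306-71228555: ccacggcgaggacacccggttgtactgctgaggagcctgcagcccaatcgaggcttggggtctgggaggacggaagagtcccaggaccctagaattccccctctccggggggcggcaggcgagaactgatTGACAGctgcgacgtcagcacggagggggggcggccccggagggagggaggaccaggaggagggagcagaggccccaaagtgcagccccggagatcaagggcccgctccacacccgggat
Tbx15, plus strand, chr2:189265123-189265372: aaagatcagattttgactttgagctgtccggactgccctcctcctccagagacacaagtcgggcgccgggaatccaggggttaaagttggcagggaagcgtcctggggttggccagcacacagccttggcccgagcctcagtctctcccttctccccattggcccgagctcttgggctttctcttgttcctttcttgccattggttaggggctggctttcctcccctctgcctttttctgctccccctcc
Meis1, minus strand, chr14:97495084-97495333: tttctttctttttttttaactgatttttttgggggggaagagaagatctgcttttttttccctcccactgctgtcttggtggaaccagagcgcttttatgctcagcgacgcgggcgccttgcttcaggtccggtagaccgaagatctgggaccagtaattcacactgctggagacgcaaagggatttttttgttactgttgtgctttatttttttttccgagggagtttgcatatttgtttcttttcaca
The match in Tbx4 begins 120 bases before the start, and TGACAG occurs in 15.8% of all 33469 promoter windows of this length. Of the 16 member promoters it is in those of Tbx4 and Hoxa2, and the Pbx-Hox letters, found in 2.82% of all windows, are in that of Hoxa2 alone. A match is a run of letters and not a measured binding site.

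Meis1 and Meis2 encode partners of Hox proteins that mark the proximal limb. Meis1 (chr14:103182178-103321129) had 13 reads in control and 33 in DA-DDH (log2 ratio 0.82, interval -0.11 to 1.90). With total-read scaling its ratio was 1.25, and the interval (0.31 to 2.33) leaves out 0. That interval includes 0.45, the median of all genes with that scaling. Meis2 (chr3:107560197-107760589) had 21 and 25 (-0.25, interval -1.14 to 0.67), and its sign turned with total-read scaling, to 0.18. The pair summed to 34 and 58 reads (0.27, interval -0.36 to 0.93, and 0.07 to 1.36 with total-read scaling). Of all 9 cofactor genes listed (Meis, Pbx and Pknox), 3 reached 30 reads in one library or the other. Of these Meis1 and Pbx2 (2 of 3) lay above 0, and the median of the log2 ratios was 0.41. All 3 passed the floor through the DA-DDH library alone, so the count and the median lean toward high ratios and are not set against other genes. Pbx2 had 18 and 34 reads (0.41, interval -0.44 to 1.34) and Pbx3 27 and 37 (-0.04, interval -0.79 to 0.73). The 9 genes summed to 127 and 202 reads (0.18, interval -0.15 to 0.51), or 0.60 with total-read scaling.

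Counted by gene, 3 of the 33 members reached 30 reads, Hoxc10, Tbx15 and Meis1. None of the 3 was more than 2-fold higher or lower, against 4.71% and 3.06% of the 4375 genes at this floor, and 2 were above 0, against 52.4%. The interval lay below 0 for 1 of them, Hoxc10, and above 0 for 0, against 14.1% and 13.8% of genes. With so few members at the floor these counts cannot set the group apart from other genes. At a floor of 10 reads 8 Hox genes counted, of which 5 were above 0, beside 52.4% of 7892 genes. All 5 passed this floor through the DA-DDH library alone, and the other 3, Hoxc8, Hoxc9 and Hoxc10, passed it in both libraries and were below 0, so nothing is read from the count. Over the 17 members with more than 3 reads in either library, the interval lay below 0 for Hoxc10 and Pitx1 and above 0 for Hoxb7 with TMM scaling, and with total-read scaling it lay above 0 for Hoxb7 and Meis1 and below 0 for no member. The median of all genes is itself at 0.45 with total-read scaling.

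**Figure D4:**
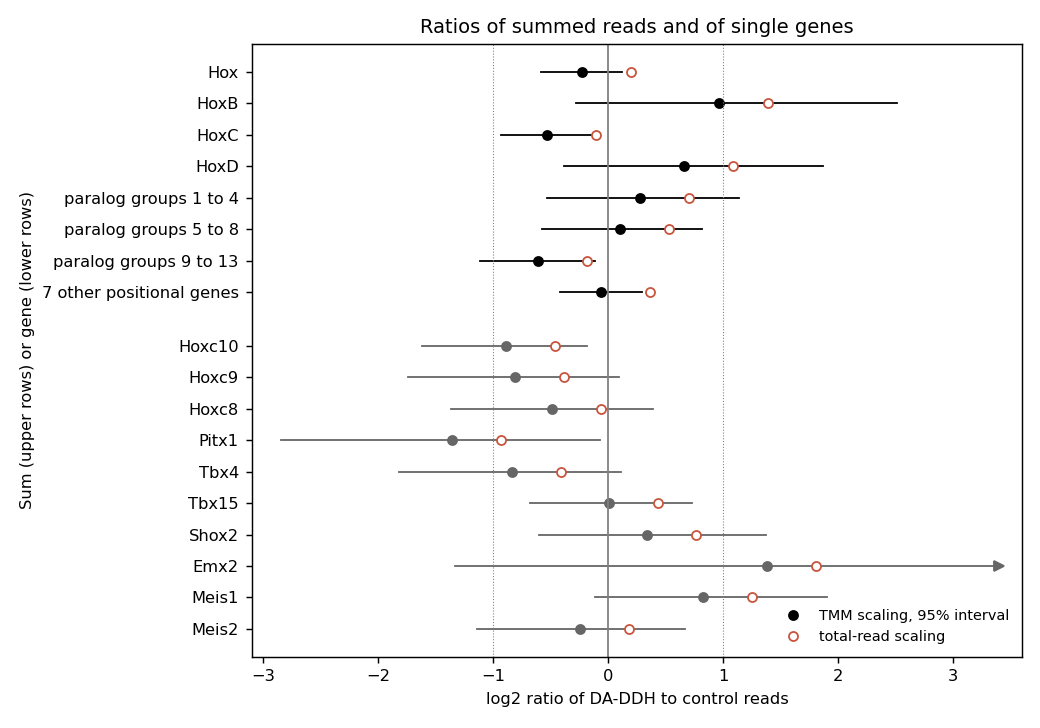
Log2 ratio of DA-DDH to control reads for sums of Hox genes by cluster and paralog group and for the 7 positional genes outside the clusters (black), and for single genes (grey). Filled points are TMM-scaled with 95% exact intervals, open red points are scaled by total reads, dotted lines mark 2-fold, and the arrow marks an interval that runs past the axis. The intervals of HoxC, of groups 9 to 13, of Hoxc10 and of Pitx1 lie below 0 with TMM scaling. The single genes drawn are Hoxc8, Hoxc9, Hoxc10 and the 7 positional genes. Hoxb7, whose interval lies above 0 (0.02 to 8.27), is not drawn.

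Levels of different genes were compared as RPKM, which divides TMM-scaled reads by exon length. In control, Hoxc9 was at 39.7 (interval 25.7 to 58.6), Tbx15 at 36.0 (24.4 to 51.1), Hoxc10 at 31.9 (22.9 to 43.3) and Hoxc8 at 28.5 (18.2 to 42.4). The intervals of these 4 levels overlap. Next came Shox2 at 13.9 (7.79 to 23.0), Meis2 at 10.9, Tbx4 at 10.3 and Pitx1 at 9.67. Shox2 differed from Hoxc9 and Tbx15, whose intervals do not overlap its own, but its interval overlaps those of Hoxc8 and Hoxc10. In DA-DDH Tbx15 stood first at 36.3 (26.4 to 48.7), followed by Hoxc9 at 22.6 (13.8 to 34.8), Hoxc8 at 20.3 (12.98 to 30.1), Shox2 at 17.8 and Hoxc10 at 17.2 (11.7 to 24.4). The interval of Tbx15 lay above that of Hoxc10 in DA-DDH, whereas in control the intervals overlapped. Meis1 moved from rank 9 in control to rank 6 in DA-DDH, at 7.63 and 13.8, and Pitx1 from rank 8 to rank 14, at 9.67 and 3.67. Per length, HoxC gave 89.4% of the Hox level in control and 72.7% in DA-DDH.

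Of a list of 42 genes of limb patterning and limb mesenchyme, 37 had a row and 13 of these had 0 reads in both libraries, among them the signals Shh, Fgf8, Fgf10 and Wnt7a of the limb bud. Of the 6 genes that reached 30 reads, 4 had ratios above 0, and the median over the 6 was 1.02. Prrx1, a homeodomain factor of limb mesenchyme, had 45 reads in control and 114 in DA-DDH (0.84, interval 0.34 to 1.38). Osr1, a zinc finger factor of limb connective tissue, had 9 and 40 (1.60, interval 0.59 to 2.89), Twist1, a mesenchymal factor, 9 and 33 (1.33, interval 0.29 to 2.63), and Tbx18 9 and 30 (1.19, interval 0.13 to 2.50). Grem1, an antagonist of BMP signals, was lower with 73 and 51 reads (-1.01, interval -1.55 to -0.47). Gli3, which answers hedgehog signals, had 74 and 102 (-0.03, interval -0.47 to 0.42), and 0.39 with total-read scaling. So 3 of the 6 were more than 2-fold higher and 1 lower. The 3 higher genes, Twist1, Osr1 and Tbx18, passed the floor through the DA-DDH library alone. The counts and the median therefore lean toward high ratios and are not set against other genes. Below the floor, the interval lay below 0 for Barx1 (26 and 9 reads) and Irx3 (8 and 2), and above 0 for Wnt5a (3 and 17). The fibroblast markers, with 2187 and 4634 reads, were also higher in that library as a sum, and Postn alone gave 762 and 2269 of these reads. Of the 7 fibroblast markers at the floor 6 were above 0, and Fap was below (-0.73, interval -0.94 to -0.53). The part of these markers in the result was not tested. The whole list summed to 335 and 517 reads (0.13, interval -0.07 to 0.34).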

How the data were processed

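RNA of acetabular cartilage was pooled from 4 control and from 5 DA-DDH rats and sequenced as 1 library each. The library kit is given as TruSeq Stranded mRNA in the methods but as a SMARTer total RNA kit in the labels. The submitters' processing notes name rn6, TopHat and Cufflinks, without versions or roles. The gene counter, its use of strand and its treatment of reads that match several places are not given in the sources used here. The deposited signal of each gene is its read count multiplied by the authors by 1 factor per library (1 read is worth 1.20 in control and 0.855 in DA-DDH). All values (100%) were whole multiples within a relative tolerance of 1e-06, so reads were recovered by division. The other deposited columns, which hold the authors' log2 fold changes, p-values, q-values, ranks and calls, were not used.

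TMM factors (0.863 and 1.16) came from edgeR 4.0.16 in R 4.3.3, and median-of-ratios factors from DESeq2 1.42.0. Log2 ratios took a prior of 0.5 reads, with Clopper-Pearson intervals of the conditional binomial. Odds ratios, shares and Poisson intervals were computed in scipy 1.17.1, with Python 3.11.15, pandas 2.3.3, numpy 2.4.6 and matplotlib 3.10.9. The ratio and its interval were tested on simulated Poisson counts, the model that the interval assumes. That check left out genes with as few reads as Hoxb7 or Hoxd9. PCR copies are not independent molecules, so intervals cover counting error only. The members and lists were chosen with earlier results of these data known. Genes named are the Hox genes with at least 30 reads, the 7 listed regulators, Tbx5, and up to 4 genes with most reads and 4 with the largest ratio of the cofactor and limb lists. Other genes named were chosen after their values were seen. Alternatives covered scaling, prior, floor, gene length and sums without single genes or overlapping genes. Promoters are RefSeq sequences of GRCr8, a build other than that of the reads.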

Additional observations from a re-analysis of the deposited data

How the results depend on the processing

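Scaling by the upper quartile, by DESeq2 size factors or by the deposited factors, a prior of 2 reads and sums without genes of overlapping exons moved none of the results they were applied to beyond its counting interval. Total-read scaling moved 3 sums, those of all Hox genes (0.19), HoxC (-0.11) and the 7 other positional genes (0.36). Without Hoxc8 the ratio of groups 5 to 8 was 1.16. With a floor of 10 reads 1 Hox gene, Hoxb7, was more than 2-fold apart, and 5 of 8 Hox, 4 of 8 cofactor and 9 of 15 limb genes were above 0. The 5 Hox genes, and several cofactor and limb genes such as Meis3, Prrx2 and Wnt5a, passed this floor through the DA-DDH library alone. Nothing is therefore read from these counts. With a floor of 100 reads 1 of 2 limb genes was above 0, and no Hox or cofactor gene was left. Without Hoxc10, groups 1 to 4 took 24.7% of the Hox reads in control. Groups 5 to 8 then took 36.5% in control and 39.2% in DA-DDH, and groups 9 to 13 took 38.8% and 30.8%. Per kilobase, groups 1 to 4 gave 16.6% in DA-DDH. In each case the setting itself (another scale factor, fewer or more genes, the length term) is the change made. HoxA, with 0 and 1 reads, gave no ratio under any setting. No paired analysis was possible because each condition has 1 library, and no library could be left out. Depth limits most genes here, as 30 of the 33 members have fewer than 30 reads in both libraries.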
